A study of Mus musculus with 19 samples.

Results

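The photoreceptor precursor genes described here are 8 genes, Otx2, Crx, Prdm1, Thrb, Rxrg, Rcvrn, Nrl and Nr2e3. They were found by symbol in the GRCm38 annotation of the Ensembl identifiers, and each had a row in the count tables, so that 8 of the 47069 genes counted are members.

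Photoreceptors, the rods and cones, are the light-sensing cells of the retina, and they arise from the same dividing progenitors as ganglion cells, horizontal cells and amacrine cells. A progenitor that leaves the cell cycle and turns on Otx2 can become a photoreceptor, a bipolar cell or a horizontal cell. Crx and Prdm1 then mark the photoreceptor path, Thrb and Rxrg the cones, and Nrl and Nr2e3 the rods, whereas recoverin (Rcvrn) and the proteins of light detection come later. Cones are born during the embryonic period and most rods around and after birth. A mouse retina in late embryonic development therefore holds cone precursors in number and few maturing rods.

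The study asked how retinal ganglion cells (RGCs) whose axons stay on their own side of the brain differ from those whose axons cross the midline. Retinas were taken from embryos at E16.5 (E, days of embryonic development) of a C57/DBA F1 background, with both sexes pooled and the genotype labelled WT. Every embryo carried Sun1-GFP, a nuclear envelope protein fused to GFP that is made once Cre recombinase has removed a stop cassette. The ipsilateral RGCs (iRGCs) were sorted by their GFP from retinas of embryos with Slc6a4-Cre (the ET33 line). The contralateral RGCs (cRGCs) were sorted in the same way from Pou4f2-Cre embryos, whose Cre sits in the Pou4f2 locus, after the ventrotemporal part of the retina had been cut away. Both were sequenced in 3 libraries. Recombination by Cre is permanent, so GFP also marks every descendant of a cell in which the driver was on at any time, and the dissected region differs between the populations together with the driver. How many embryos entered a library was not given in the sources used here, and where replicates are not separate litters the p-values below measure only the spread between these libraries, which may be technical.

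The libraries were of similar depth, from 28193178 to 30874653 reads on genes in iRGCs and from 28274471 to 33638083 in cRGCs. Levels are given as CPM, read counts scaled to a common library size with edgeR's TMM factors. A log2 fold change compares iRGCs with cRGCs, is positive for a gene with more transcript in iRGCs, and comes with its standard error (SE). A gene was called when edgeR's quasi-likelihood test gave it an adjusted p-value under 0.1 (Benjamini-Hochberg over the 15941 genes with enough counts to be tested). In a bulk library, fewer cells of a type and less RNA per cell cannot be told apart.

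The driver genes were read first as a check of the labels. Slc6a4, the serotonin transporter whose Cre line labels the iRGCs, stood at 2.06, 33.4 and 116 CPM in iRGC replicates 1, 2 and 3 and at 48.1, 35.4 and 30.5 CPM in the cRGC replicates. The library labelled iRGC replicate 1 had the lowest Slc6a4 level of all 6 and iRGC replicate 3 the highest, and the gene was not called (log2 fold change 0.41, SE 0.93, adjusted p = 0.768), with a log2 fold change of -1.11 without iRGC replicate 3, -0.86 with limma voom and -0.54 with the replicate number as a block. Pou4f2, the driver of the cRGC line, was lower in every iRGC library, with 74.7, 133 and 98.3 CPM against 191, 196 and 293 CPM, and was called (log2 fold change -1.15, SE 0.23, adjusted p = 0.00424). Sun1 counts, in which the mouse gene and the transgene cannot be told apart, were 99.0, 120 and 153 CPM in iRGCs and 391, 271 and 384 CPM in cRGCs. Of 12 markers of vessels, 10 were highest among the iRGC libraries in replicate 2, where Rgs5, Pecam1 and Cdh5, genes of pericytes and of endothelial cells, reached 93.8, 53.0 and 81.3 CPM, whereas in iRGC replicate 1 they were at 3.76, 9.65 and 15.2 CPM and in iRGC replicate 3 at 2.24, 0.284 and 0.158 CPM. Cldn5 was at 26.0, 25.2 and 11.8 CPM in iRGC replicates 1, 2 and 3 and at or under 2.93 CPM in cRGCs, and Kdr at 366, 320 and 418 CPM, so that replicate 1 held vessel markers too and Kdr and Cldn5 did not set replicate 2 apart. For that reason the fold changes of the members are given below with all 6 libraries and without iRGC replicate 1 or 2.

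Of the 8 members, 5 were higher in iRGCs (Otx2, Crx, Prdm1, Thrb and Nrl), 1 was lower (Rxrg) and 2 had too few counts to be tested (Rcvrn and Nr2e3). Among all tested genes 23.3% were called higher, 23.1% lower and 46.4% in either direction. All 6 tested members also passed an absolute log2 fold change of 1 at the same adjusted p-value, as did 12.1% of all tested genes in the higher direction and 11.0% in the lower. The levels of the 2 populations did not overlap for any of the 6, against 55.3% of all tested genes. Each of the 6 had at least 1.23 CPM in every library, so none was tested on the strength of 1 population alone. The median log2 fold change of the 6 was 1.99, beside -0.00307 for all tested genes. Scaled by library totals without TMM factors, the median of all tested genes was 0.202 and the share of calls that were higher in iRGCs 64.2% in place of 50.1%. All 6 members were then called in the same direction, but Rxrg, at -0.88, no longer passed an absolute log2 fold change of 1. The summed level of the 8 members was 807, 641 and 626 CPM in iRGCs and 170, 256 and 206 CPM in cRGCs (691 ± 100.2 against 210.3 ± 43.2, SD, n = 3), a 3.29-fold difference.

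**Figure D1:**
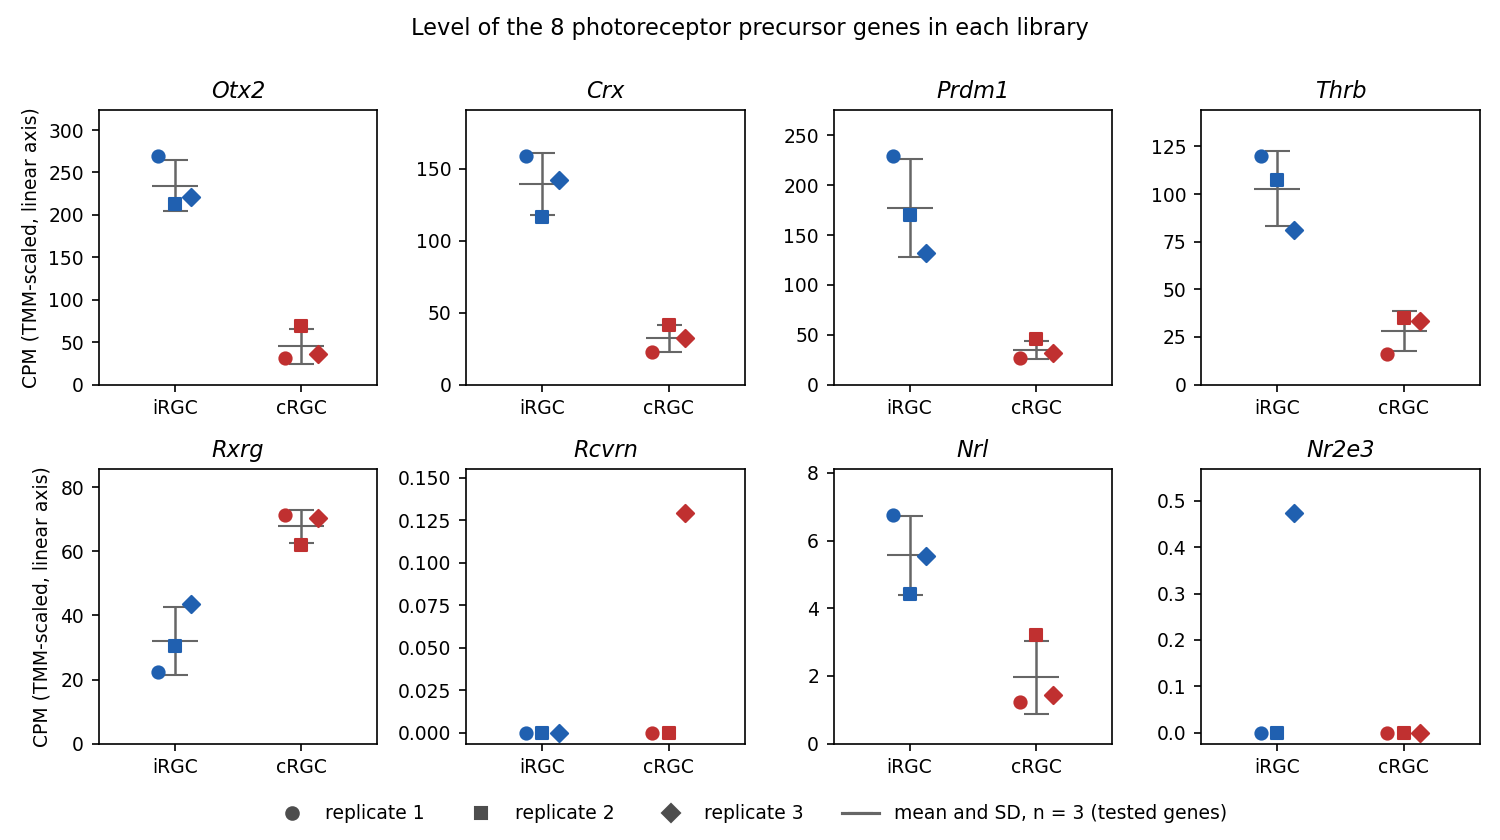
Level of each member (CPM, linear axis starting near 0, a separate scale for each gene) in the 3 iRGC libraries (blue) and the 3 cRGC libraries (red), with the mean and SD of each population for the genes that were tested. Otx2, Crx, Prdm1, Thrb and Nrl were higher in every iRGC library and Rxrg in every cRGC library, and Rcvrn and Nr2e3 had counts in 1 library each.

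Otx2, Crx and Prdm1, the factors shared by rods and cones, had 4.30-fold to 5.18-fold more transcript in iRGCs. Otx2, the homeobox gene that opens the photoreceptor path, lies on chromosome 14 (chr14:48657677-48673819, minus strand, GRCm38). It had 269, 213 and 221 CPM in the iRGC libraries and 30.9, 68.9 and 36.1 CPM in the cRGC libraries. The iRGC libraries kept within 1.27-fold of each other, cRGC replicate 2 was the highest of its population, and the lowest iRGC library was 3.09 times the highest cRGC library. The difference was 2.37 on the log2 scale (SE 0.28, adjusted p = 3.55e-04), and 5.16% of all tested genes had a higher one. Without iRGC replicate 1 it was 2.26, without iRGC replicate 2 it was 2.44, and without cRGC replicate 2 it was 2.82. Otx2 shares 3.65% of its exonic bases with Otx2os1, an antisense transcript that was at or under 0.989 CPM in every library.

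Crx, the homeobox activator of many photoreceptor genes and a close relative of Otx2, lies at chr7:15865947-15879968 on the minus strand. Its levels were 159, 116 and 142 CPM in iRGCs and 22.8, 41.6 and 32.6 CPM in cRGCs, again with cRGC replicate 2 the highest of the cRGC libraries and no overlap between the populations. On the log2 scale the difference was 2.10 (SE 0.22, adjusted p = 2.42e-04), with 2.00 without iRGC replicate 1 and 2.22 without iRGC replicate 2. Prdm1, a zinc finger repressor that holds Otx2-positive cells on the photoreceptor path and keeps them from the bipolar fate, lies at chr10:44437177-44528501 on the minus strand. It had 229, 170 and 132 CPM in iRGCs and 27.1, 45.2 and 31.9 CPM in cRGCs. Its iRGC libraries were spread wider than those of Otx2 and Crx, by 1.74-fold, with replicate 1 the highest, and its lowest iRGC library was still 2.91 times the highest cRGC library. The difference came to 2.35 on the log2 scale (SE 0.25, adjusted p = 2.42e-04), 2.12 without iRGC replicate 1 and 2.38 without iRGC replicate 2.

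Otx2 and Crx both bind the sequence TAATCC, and the promoters of the members were searched for it on both strands. RefSeq promoters of 300 bases, 250 before and 50 after a start site on GRCm38.p6, were matched for 7 of the 8 members. These 7 genes have 12 promoters in the table, of which 3 held a match (1 each of Crx, Otx2 and Thrb), and 7.06% of all 32851 promoters of the same length held at least 1. The promoters with a match are shown with 1 of the 2 promoters of Rxrg, the member that was lower in iRGCs, neither of which held a match. The promoters of Prdm1 and Nrl, which were higher in iRGCs, and of Nr2e3 held no match either, so a match did not go with direction. Capitals mark the match, which reads GGATTA in all of them because TAATCC is on the opposite strand.
Crx chr7:15879906-15880205, minus strand: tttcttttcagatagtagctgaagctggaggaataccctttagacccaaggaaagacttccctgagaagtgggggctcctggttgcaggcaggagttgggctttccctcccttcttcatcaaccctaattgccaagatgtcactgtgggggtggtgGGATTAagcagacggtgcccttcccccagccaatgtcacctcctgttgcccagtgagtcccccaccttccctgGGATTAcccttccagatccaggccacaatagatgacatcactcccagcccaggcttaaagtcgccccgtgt
Otx2 chr14:48665060-48665359, minus strand: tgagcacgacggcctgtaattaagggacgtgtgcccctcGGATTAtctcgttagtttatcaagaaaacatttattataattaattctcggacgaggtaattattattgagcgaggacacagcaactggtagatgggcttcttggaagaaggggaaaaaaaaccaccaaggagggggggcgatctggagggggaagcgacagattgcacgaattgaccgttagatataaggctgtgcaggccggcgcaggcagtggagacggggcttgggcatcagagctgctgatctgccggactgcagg
Thrb chr14:17660710-17661009, plus strand: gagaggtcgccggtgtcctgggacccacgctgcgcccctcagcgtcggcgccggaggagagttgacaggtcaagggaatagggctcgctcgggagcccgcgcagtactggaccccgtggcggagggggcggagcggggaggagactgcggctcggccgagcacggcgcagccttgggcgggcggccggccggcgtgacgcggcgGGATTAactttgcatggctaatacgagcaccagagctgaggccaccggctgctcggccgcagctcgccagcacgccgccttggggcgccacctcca
Rxrg chr1:167598112-167598411, plus strand: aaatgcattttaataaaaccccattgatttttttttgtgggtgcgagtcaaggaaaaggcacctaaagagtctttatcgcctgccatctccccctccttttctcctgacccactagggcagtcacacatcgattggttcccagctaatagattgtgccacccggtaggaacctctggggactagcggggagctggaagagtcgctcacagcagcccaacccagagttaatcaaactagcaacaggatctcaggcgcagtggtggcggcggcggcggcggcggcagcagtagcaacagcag
The Crx promoter held 2 matches, which begin 94 and 21 bases before the start site, and 0.359% of all promoters held 2 or more. The match of Otx2 begins 211 bases before the start site and lies in 1 of its 4 promoters, and that of Thrb begins 46 bases before it and lies in 1 of 2. TAATTA, a site of many other homeodomain proteins that shares its opening letters with TAATCC, occurred 3 times in the Otx2 promoter shown and in 5.29% of all promoters. TGCTGA, part of the site of Maf proteins and Nrl, occurred once in the Otx2 promoter shown and in 19.5% of all promoters. The E-box CANNTG, bound by basic helix-loop-helix factors, was found in 72.3% of all promoters. It occurred once in the Otx2 promoter shown and in none of the Crx, Thrb and Rxrg promoters shown. The other Rxrg promoter held 3, the other Thrb promoter 1 and the other Otx2 promoters 0 to 2, and those of Nr2e3, Nrl and Prdm1 held 5, 2 and 2. A match is only a run of letters in these windows, and counts per gene do not show which of several promoters was used.

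The cone genes Thrb and Rxrg moved in opposite directions, Thrb 3.65-fold higher and Rxrg 2.11-fold lower in iRGCs. Thrb, which encodes the thyroid hormone receptor beta that sets which opsin a cone makes, lies at chr14:17660261-18038090 on the plus strand. Its levels were 120, 107 and 81.1 CPM in iRGCs and 16.2, 34.7 and 33.5 CPM in cRGCs. Here cRGC replicate 1 stood below the other 2, and the lowest iRGC library was 2.34 times the highest cRGC library. The difference between the populations was 1.87 on the log2 scale (SE 0.28, adjusted p = 9.49e-04), with 1.74 without iRGC replicate 1 and 1.83 without iRGC replicate 2. The counts are per gene and do not separate the cone isoform of Thrb from the others.

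Rxrg encodes the retinoid X receptor gamma, a nuclear receptor of developing cones that ganglion cells also make, and lies at chr1:167598384-167639623 on the plus strand. It had 22.4, 30.5 and 43.5 CPM in iRGCs and 71.3, 61.9 and 70.3 CPM in cRGCs. The cRGC libraries lay within 1.15-fold of each other and the iRGC libraries within 1.94-fold, with replicate 1 the lowest, and the lowest cRGC library was 1.43 times the highest iRGC library. On the log2 scale this was a difference of -1.08 (SE 0.22, adjusted p = 0.00449), and 14.7% of all tested genes had a lower one. It was -1.04 without iRGC replicate 2, and without iRGC replicate 1 it was -0.88, which is called but no longer past an absolute log2 fold change of 1. Within a library, the level of Rxrg per kilobase of exon was 60.2%, 91.3% and 173% of that of Thrb in iRGCs and 1416%, 575% and 677% in cRGCs (108% ± 58.1 against 889% ± 459, SD, n = 3). This ratio does not depend on any scaling between libraries. The populations did not overlap, with a difference of -3.06 on the log2 scale and an exact permutation p = 0.1, two-sided, the smallest that 3 libraries against 3 can give (adjusted p = 0.2 over the 2 ratios computed). The other ratio, Crx to Otx2 per kilobase, was 78.7%, 72.8% and 85.8% in iRGCs and 98.6%, 80.6% and 120% in cRGCs. It overlapped between the populations, with a difference of -0.32 on the log2 scale and an exact permutation p = 0.2 (adjusted p = 0.2).

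The rod genes were scarce, per kilobase of exon as well as in CPM. Nrl, the leucine zipper factor that commits a precursor to the rod fate, lies at chr14:55518978-55524981 on the minus strand. It had 6.75, 4.42 and 5.55 CPM in iRGCs, from 210, 143 and 176 reads, and 1.23, 3.21 and 1.45 CPM in cRGCs, from 32, 93 and 45 reads. The libraries did not overlap, but the lowest iRGC library was only 1.38 times cRGC replicate 2. The log2 difference, 1.50 with an SE of 0.51 (adjusted p = 0.0428), was the least certain of the 6, and leaving out cRGC replicate 1 (1.25, adjusted p = 0.124) or cRGC replicate 3 (1.32, adjusted p = 0.139) ended the call. It was 1.34 without iRGC replicate 1, 1.64 without iRGC replicate 2 and 2.07 without cRGC replicate 2. The exons of the annotated gene cover 94.8% of its length, so reads from unspliced transcripts count toward it as well.

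Nr2e3, the nuclear receptor that Nrl turns on in rods to keep cone genes off, lies at chr9:59942771-59960659 on the minus strand. It had 15 reads in iRGC replicate 3 (0.473 CPM) and 0 in the other 5 libraries. Rcvrn, the calcium sensor recoverin of maturing photoreceptors, lies at chr11:67695326-67703333 on the plus strand. It had 4 reads in cRGC replicate 3 (0.129 CPM) and 0 in the other 5 libraries. A count of 0 allows a level of up to 0.0927 to 0.115 CPM in these libraries (3 reads, counting error only), so both genes were near or under the limit of detection in nearly every library. With no filter on low counts, edgeR's quasi-likelihood test gave adjusted p-values of 0.255 for Nr2e3 and 0.357 for Rcvrn. Neither difference was detectable at this depth.

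Per kilobase of exon, Otx2 was the most abundant member in iRGCs, with 55.6 ± 7.22 CPM per kilobase (SD, n = 3). Crx followed with 44.0 ± 6.81 and Prdm1 with 31.7 ± 8.81 CPM per kilobase. Rxrg and Thrb came next, at 14.0 ± 4.62 and 13.9 ± 2.68 CPM per kilobase, and Nrl was at 0.980 ± 0.205. Otx2 lay apart from Crx in all 3 libraries, and Crx was above Prdm1 within each of the 3 libraries although their ranges overlapped. The ranges of Rxrg and Thrb overlapped too, with Rxrg above Thrb in 1 library. In cRGCs the order began with Rxrg, at 29.5 ± 2.23 CPM per kilobase, apart from Otx2 at 10.7 ± 4.88. Crx at 10.2 ± 2.97 overlapped in range with both Otx2 and Prdm1, the latter at 6.23 ± 1.68 and below Crx within each library, and below them lay Thrb at 3.80 ± 1.40 and Nrl at 0.345 ± 0.191 CPM per kilobase. Among all tested genes, the mean level of Otx2 per kilobase was at the 96.6th percentile in iRGCs and at percentile 68.5 in cRGCs, that of Crx at percentiles 95.1 and 67.3, and that of Rxrg at percentiles 75.6 and 89.4.

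**Figure D2:**
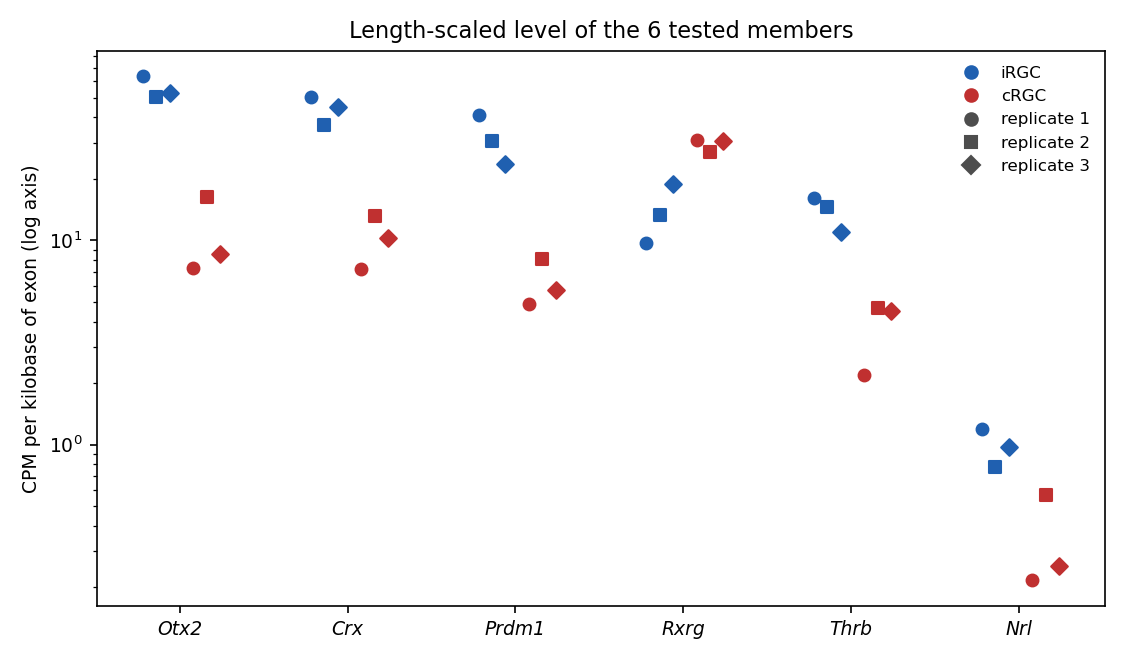
Level per kilobase of exon (CPM per kilobase, log axis) of the 6 tested members in the 3 iRGC libraries (blue) and the 3 cRGC libraries (red), ordered by the iRGC mean. Rxrg, at 29.5 CPM per kilobase in cRGCs and 14.0 in iRGCs, is the only one of the 6 with its cRGC points on top.

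Some libraries stood at the same end of their population for several members. In cRGCs, replicate 2 had the highest Otx2, Crx, Prdm1, Thrb and Nrl of the 3, and replicate 1 the lowest. In iRGCs, replicate 1 had the highest Otx2, Crx, Prdm1, Thrb and Nrl and the lowest Rxrg. The same libraries stood at the ends of the progenitor markers, whose summed level was 9748, 8721 and 7574 CPM in iRGCs and 1674, 2807 and 2218 CPM in cRGCs. Only 3 libraries stand behind each of these orders, and they were not tested.

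**Figure D3:**
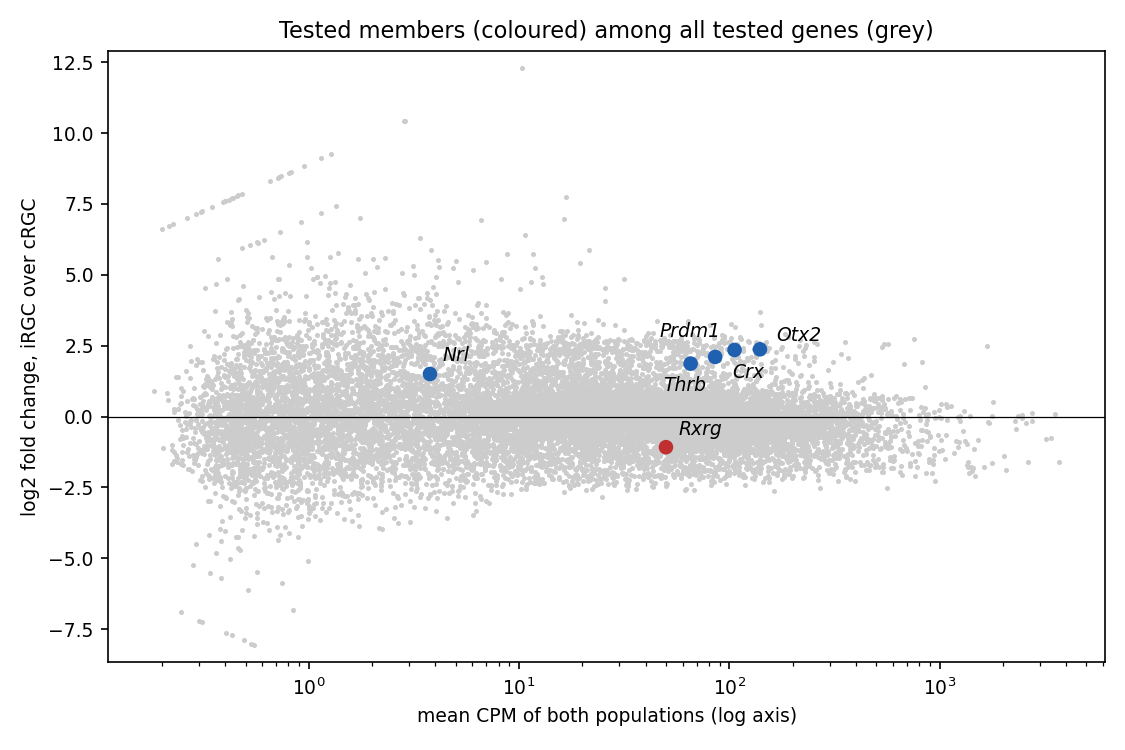
Log2 fold change of iRGCs over cRGCs against the mean CPM of both populations (log axis) for the 15941 tested genes (grey), with the 6 tested members in blue (higher in iRGCs) and red (lower). The 5 higher members lie between 1.50 and 2.37, within the upper part of the cloud at their level, and Rxrg lies at -1.08. Grey points along slanting lines are genes at 0 in a whole population, whose fitted value is no measure of size.

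Of 26 other regulators of photoreceptor birth and fate that were listed, 24 were tested, of which 14 were called higher in iRGCs, 0 lower and 10 not called, with a median log2 fold change of 0.73. Without Ikzf1, which was at 0 in every cRGC library and was tested through its iRGC counts alone, 13 of 23 were higher and the median was 0.71, beside 23.3% of all tested genes called higher. Neurod1, a basic helix-loop-helix gene that photoreceptors need to survive, had 284, 219 and 258 CPM in iRGCs and 55.3, 80.2 and 66.1 CPM in cRGCs (log2 fold change 1.92, SE 0.16). Neurod4 was higher by 2.44 on the log2 scale (SE 0.35) and Olig2, a gene of progenitors about to make cones and horizontal cells, by 2.60 (SE 0.44), with 38.4, 35.1 and 38.7 CPM against 2.35, 10.4 and 5.78 CPM. Rax, a homeobox gene that progenitors make as well as photoreceptors, had a log2 fold change of 2.31, and Casz1, which favours rods, one of 1.91.

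Rorb, the orphan receptor upstream of Nrl and Prdm1, had the most reads of the list, at 681, 579 and 439 CPM in iRGCs and 402, 366 and 324 CPM in cRGCs. Its populations did not overlap, and the log2 difference was 0.64 (SE 0.16, adjusted p = 0.0136). Ikzf1, a factor of early-born cell types, had 1.13, 1.02 and 0.347 CPM in iRGCs and 0 in every cRGC library, which makes it at least 7.90-fold higher against a floor of 3 reads per library. Mef2c, a gene of photoreceptors and of vessels, had the next largest change of the list (2.99, SE 0.99, adjusted p = 0.0403), from 3.86, 8.10 and 0.568 CPM against 0.384, 0.242 and 0.936 CPM. Its libraries overlapped, and without iRGC replicate 2 the log2 fold change was 2.07 and the call was lost (adjusted p = 0.216). The call was also lost without cRGC replicate 1 (2.82, adjusted p = 0.119) or cRGC replicate 2 (2.67, adjusted p = 0.115). With limma voom (2.49, adjusted p = 0.235) and with the replicate number as a block (2.71, adjusted p = 0.195) it was lost as well. Onecut1 and Onecut2, which steer precursors to horizontal cells and cones, were not called, at -0.58 (adjusted p = 0.103) and -0.56 (adjusted p = 0.117), but each was called lower in 6 of the 15 alternatives, among them DESeq2 (adjusted p = 0.0908 and 0.0591), limma voom (0.0938 and 0.0963) and no filter on low counts (0.0842 and 0.0471). Esrrb, a rod gene at -1.60 (adjusted p = 0.238), was called lower with limma voom (0.0799) and without iRGC replicate 3 (0.0281).

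The genes of light detection were mostly at low levels, and those that were called higher belong to cones or to both cell types. Of 28 listed, 16 were tested, of which 6 were higher in iRGCs, 1 lower and 9 not called, so that 43.8% were called, near the 46.4% of all tested genes. The cone transducin gene Gnb3 had 54.6, 31.7 and 72.8 CPM in iRGCs and 8.03, 17.8 and 8.75 CPM in cRGCs (log2 fold change 2.20, SE 0.38). Pdc, which encodes the transducin-binding protein phosducin, had 24.9, 14.5 and 21.4 CPM against 2.88, 5.28 and 3.84 CPM (2.34, SE 0.32). Cnga3, a subunit of the cone cation channel, was at 9.04, 5.01 and 9.77 CPM against 1.85, 2.86 and 0.549 CPM (2.18, SE 0.60), and Gnat2, Gngt2 and Pde6c, also of cones, had log2 fold changes of 2.16, 2.07 and 1.92. The populations did not overlap for any of these. Gnat2 was at 14.3, 10.3 and 22.6 CPM in iRGCs and 1.31, 7.80 and 1.48 CPM in cRGCs. Pde6c was at 13.4, 11.9 and 11.0 CPM against 1.19, 5.31 and 3.03 CPM. The size of both differences therefore depends on cRGC replicate 2, the highest of its population. The gene that was lower, Gnb1 (-0.73, SE 0.11), encodes the transducin beta subunit of rods that most neurons make as well, and it alone held 88.0% of the counts of the list.

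Set side by side after their values were seen, the cone and the rod genes of this list differed in their counts, which are not scaled for gene length here. Of 10 cone genes, 7 were tested and 5 called higher, where 23.3% of all tested genes were called higher, and their summed level was 128, 86.1 and 166 CPM in iRGCs and 26.8, 55.7 and 23.7 CPM in cRGCs (126 ± 39.8 against 35.4 ± 17.7, SD, n = 3). The 8 rod genes leave out Gnb1, as a gene of many neurons, and also Sag and Grk1. Of these 8, 2 were tested and 0 called, where 46.4% of all tested genes were called in either direction, and 2 were at 0 everywhere. Their summed level was 2.28, 1.70 and 2.30 CPM in iRGCs and 3.11, 0.759 and 2.55 CPM in cRGCs, with much overlap. Sag was not called (-0.84, adjusted p = 0.672). Grk1, at 2.25, 0.556 and 1.80 CPM in iRGCs and 0.154, 0.621 and 0.387 CPM in cRGCs, was not called (1.97, adjusted p = 0.153). It was called higher with DESeq2 (adjusted p = 0.0837). The cone opsins were hardly detected. Opn1mw was at 0 in every library, and Opn1sw had 1.32, 0.247 and 2.40 CPM in iRGCs and 0.0384, 1.42 and 0 CPM in cRGCs (adjusted p = 0.530), although it was called higher without cRGC replicate 2 (adjusted p = 0.0589).

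Of 20 genes of photoreceptor structure, visual cycle and synapse, 16 were tested, of which 10 were higher in iRGCs, 0 lower and 6 not called, with a median log2 fold change of 1.64, beside 23.3% of all tested genes called higher and 23.1% lower. Rbp3, the retinoid-binding protein of the space around photoreceptors, was at 115, 64.8 and 178 CPM in iRGCs and 13.2, 33.1 and 15.8 CPM in cRGCs. Its lowest iRGC library, replicate 2, was still above all cRGC libraries, and the log2 difference was 2.53 (SE 0.43, adjusted p = 0.00175). Abca4, the retinoid transporter of the outer segment, had a log2 fold change of 2.11 at 4.73, 6.65 and 5.39 CPM against 1.46, 0.966 and 1.45 CPM. Aipl1, a chaperone of photoreceptor phosphodiesterase, had one of 2.26 (adjusted p = 0.0268), lost without iRGC replicate 3 (1.65, adjusted p = 0.149), which held 8.54 CPM against 3.06 and 3.65 CPM in the other 2. Crb1, the polarity gene that progenitors and glia make as well, had the most reads of the list, at 149, 106 and 138 CPM against 49.4, 57.2 and 51.3 CPM (1.32, SE 0.15). Rpgrip1, Tulp1, Prom1 and Impg2, genes of the cilium, of transport, of disc membranes and of the matrix around photoreceptors, had log2 fold changes of 1.93, 1.89, 1.81 and 1.75. The call of Rdh12 (adjusted p = 0.0899) was lost when any single library was left out, and that of Rp1l1 (adjusted p = 0.0875) without iRGC replicate 2 or 3 or cRGC replicate 1 or 3.

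**Figure D4:**
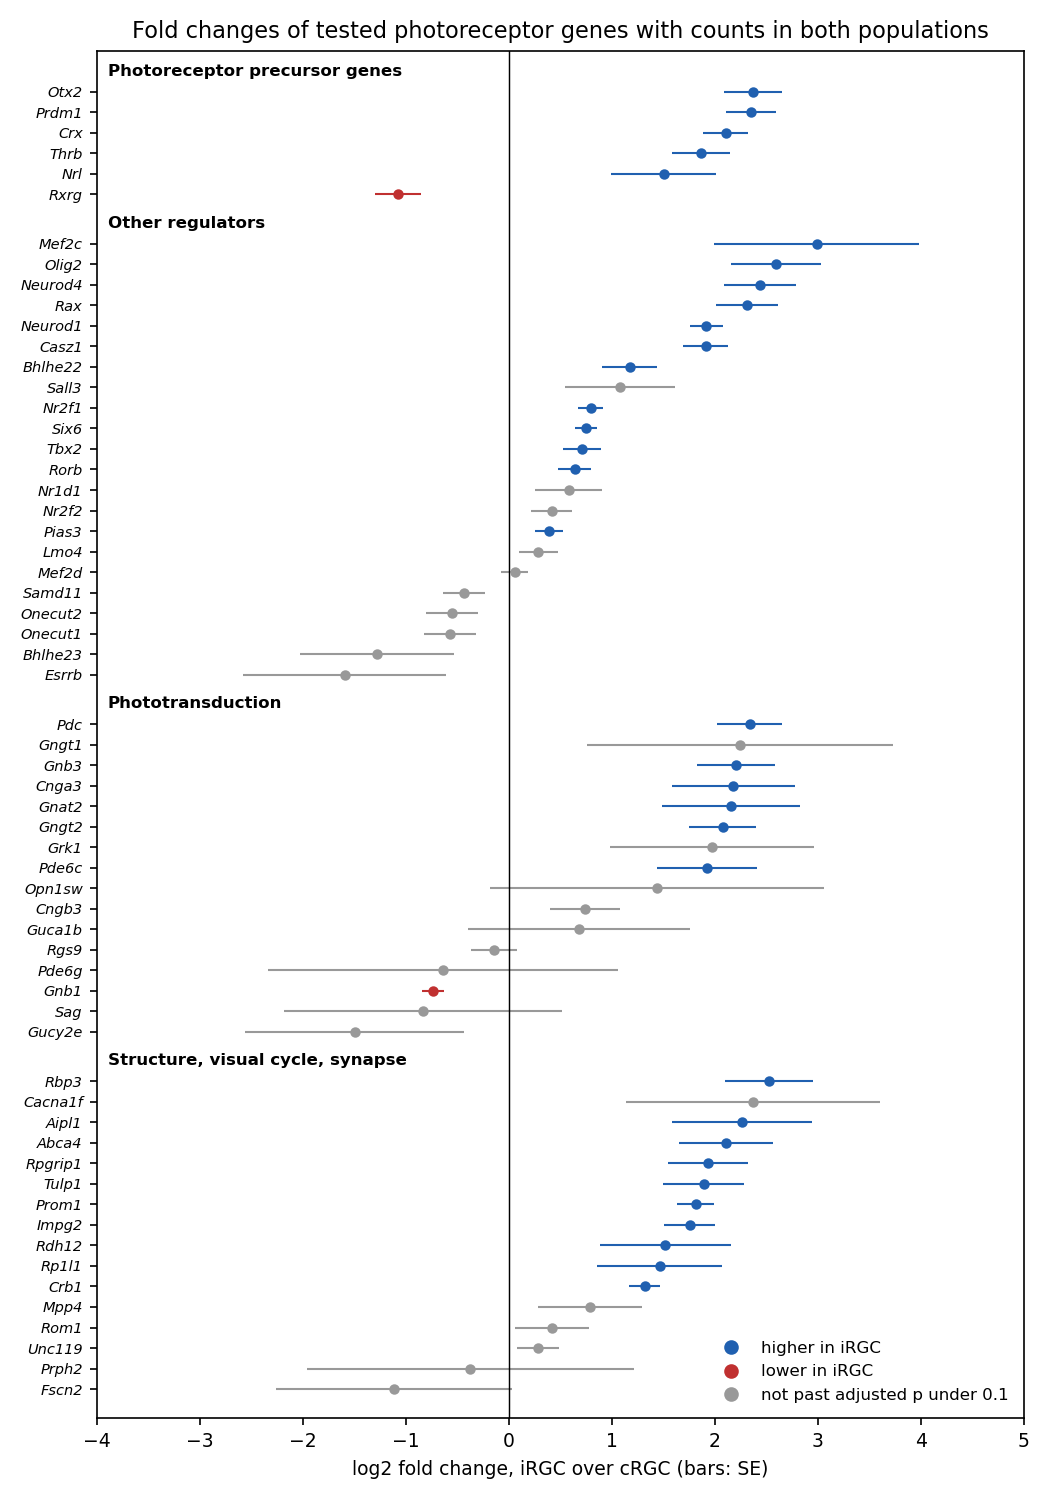
Log2 fold change of iRGCs over cRGCs, with the SE as bars, for tested genes of 4 lists that had counts in both populations. Blue marks genes called higher in iRGCs, red those called lower and grey those not called. Rxrg and Gnb1 are the only red points, and the 5 higher members lie between 1.50 and 2.37.

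Close relatives of the members were called in both directions. Of 12 tested, 4 were higher (Nr2e1, Maf, Prdm13 and Rxra), 4 lower (Vsnl1, Hpca, Thra and Ncald) and 4 not called, beside 23.3% of all tested genes called higher and 23.1% lower, with a median log2 fold change of -0.16. Thra, the other thyroid hormone receptor, went opposite to Thrb, with 195, 202 and 350 CPM in iRGCs and 816, 733 and 589 CPM in cRGCs (-1.52, SE 0.23). Rxra went opposite to Rxrg, with 68.6, 53.0 and 64.2 CPM against 15.2, 25.5 and 16.2 CPM (1.71, SE 0.22), and Rxrb was not called (0.08, adjusted p = 0.669) except when scaled by library totals (0.28, adjusted p = 0.0750). The relatives of recoverin, the neuronal calcium sensors Vsnl1, Hpca and Ncald, were lower, at -2.40, -1.65 and -1.25 on the log2 scale. Vsnl1 was at 1.09, 1.73 and 4.57 CPM in iRGCs and 14.8, 17.7 and 6.65 CPM in cRGCs, so the size of its difference depends on iRGC replicate 3 and cRGC replicate 3. Nr2e1, the progenitor receptor closest to Nr2e3, was at 186, 169 and 176 CPM against 16.6, 36.2 and 25.5 CPM (2.76, SE 0.25). Maf, a relative of Nrl, was higher by 2.76 (SE 0.34). Otx1, the relative of Otx2, was at 22.3 CPM in iRGC replicate 2 and at or under 2.84 CPM in the other 5 libraries, and was not called (2.00, adjusted p = 0.176). It was called higher with DESeq2 (adjusted p = 0.0702), with no filter on low counts (0.0957) and without iRGC replicate 1 (0.0270), and its log2 fold change was -0.37 without iRGC replicate 2.

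Markers of other cell types differed between the populations as well, some with the 5 higher members and some against them. Their counts stand beside 23.3% of all tested genes called higher, 23.1% lower and 46.4% in either direction. Progenitor markers were higher in iRGCs for 13 of 14 genes, with a median log2 fold change of 2.56 and a 3.89-fold higher sum, of which the cyclin Ccnd1 held 30.7% (Pax6, which ganglion cells also make, was not called, and its log2 fold change turned to 0.10 when scaled by library totals). Sfrp2, Fgf15 and Slc1a3 rose the most (2.92, 2.73 and 2.64), and the glutamate transporter gene Slc1a3 had 202, 147 and 175 CPM against 19.2, 41.0 and 23.7 CPM. Neurogenic precursor markers were higher for 14 of 14 genes, with a median of 2.09 and summed levels of 2047, 2207 and 1950 CPM against 392, 691 and 581 CPM, and Hes6 had the most reads. Ganglion cell markers were lower in iRGCs for 13 of 14 genes, with a median of -1.95. Their sums were 2501, 3506 and 5342 CPM in iRGCs and 13848, 12542 and 15482 CPM in cRGCs, 3.69-fold lower, with the most reads on the neurofilament gene Nefm. All of the defining ganglion cell markers had counts in every library of both populations. Of the called ones, Pou4f1, Slc17a6 and Rbpms fell the most, with Pou4f1 at 107, 116 and 182 CPM against 861, 672 and 431 CPM (-2.28), and Thy1, with 6.18, 1.33 and 13.8 CPM against 46.5, 39.1 and 3.19 CPM, was not called (-2.06, adjusted p = 0.121). Thy1 was called lower with no filter on low counts (adjusted p = 0.0321), with at least 10 counts in every library (0.0922), without iRGC replicate 3 (0.0558) and without cRGC replicate 3 (0.0278). The part of progenitors and precursors in the levels of the members was not tested.

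Pigment epithelium also makes Otx2, and its markers were at low levels in both populations. The 14 markers summed to 10.5, 14.2 and 8.86 CPM in iRGCs and 5.69, 8.87 and 9.04 CPM in cRGCs, Slc45a2 was at 0 in every library, and Rpe65 was at 0 in all but iRGC replicate 3, where it had 0.126 CPM. Others were well above the limit of detection. Best1 had the most reads, with up to 4.32 CPM in cRGCs, and was not called, but was called lower with DESeq2 (adjusted p = 0.0935), limma voom (0.0899), at least 10 counts in every library (0.0707) and without iRGC replicate 3 (0.0774). Ttr had 5.08 CPM in iRGC replicate 1 and 0 in the other 5 libraries, and Dct had 1.25, 1.39 and 0.946 CPM in iRGCs against 0, 0.173 and 0.323 CPM, which was not called (2.81, adjusted p = 0.118). Dct was called higher with DESeq2 (adjusted p = 0.0448), with limma voom (0.0948) and when scaled by library totals (0.0916). Of 7 tested, 1 was called (14.3%, beside 46.4% of all tested genes), Serpinf1, at 1.64, 3.28 and 2.62 CPM in iRGCs against 0.308, 0.449 and 0.226 CPM (2.92). The part of pigment epithelium in the levels of Otx2 was not tested. Bipolar markers, of a cell type that keeps Otx2 and is born later, were tested for 6 of 10 genes, of which 2 were higher and 1 lower, so that 50% were called, near the 46.4% of all tested genes. The higher ones were Lhx4 (2.50), which cone precursors make too, and Trpm1, the cation channel of bipolar cells and pigment cells, whose call was lost without iRGC replicate 2 (adjusted p = 0.198) or cRGC replicate 3 (adjusted p = 0.103) and with limma voom (adjusted p = 0.290). Isl1, which ganglion cells share, was lower (-1.94) and held 88.1% of the list. Endothelial and mural markers were higher in iRGCs for 7 of 8 tested, beside 23.3% of all tested genes, with sums of 462, 711 and 455 CPM against 91.0, 112 and 74.1 CPM. Kdr, which progenitors also make, held 71.3% of them. The calls of Pecam1 and Esam were lost without iRGC replicate 2, and that of Esam also without cRGC replicate 2 or 3, while Pecam1, Flt1, Esam and Rgs5 were not called by limma voom (adjusted p = 0.464, 0.240, 0.537 and 0.420). Without iRGC replicate 2, Otx2, Crx, Prdm1, Thrb and Nrl were each called, at 2.44, 2.22, 2.38, 1.83 and 1.64 on the log2 scale. Vessel markers were present in iRGC replicate 1 as well, and the part of vessel cells in the levels of the members was not tested.

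**Figure D5:**
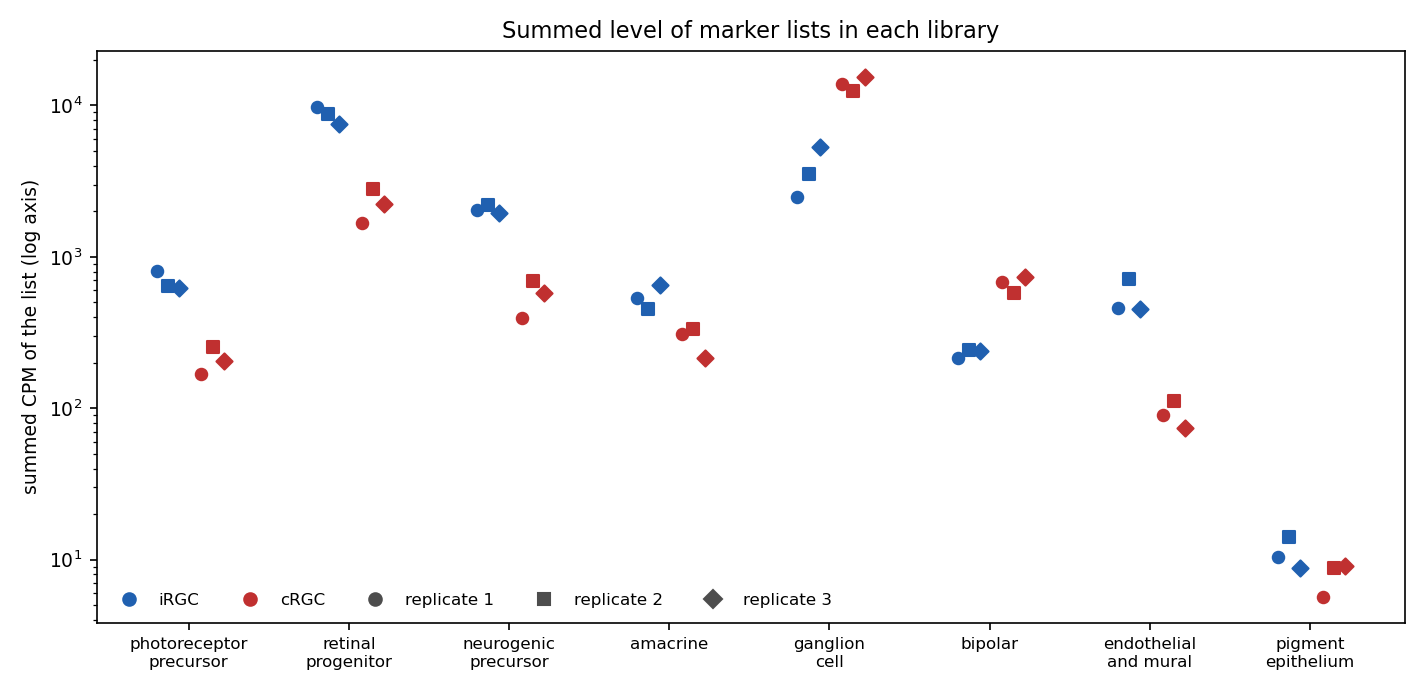
Summed level (CPM, log axis) of the members and of 7 lists of markers in each library, iRGCs in blue and cRGCs in red. The photoreceptor precursor, progenitor and neurogenic precursor sums were higher in every iRGC library, and the ganglion cell sums in every cRGC library.

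Genes with profiles most like those of the members were looked up over the 6 libraries among 11663 protein-coding genes, by the root mean square difference of log2 CPM after centring each gene on its mean. Nearest to Otx2 were Col23a1 (0.0510), a membrane collagen, and Stil (0.0676), a centriole gene. Nearest to Crx were Snx33 (0.0991) and Crot (0.101), and nearest to Prdm1 were the cell cycle kinase gene Wee1 (0.0847) and Rpa2 (0.0859), of the replication protein A complex. Nearest to Thrb were Prkd1 (0.0689) and Zhx2 (0.0728). Rxrg was closest to Tmem35a (0.0433) and Rab3il1 (0.0464), and Nrl to Slc6a9 (0.145) and Tnni3 (0.150), a looser match. Because the 6 libraries fall into 2 populations, any gene with a like difference between them comes out near.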

How the data were processed

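RNA of sorted E16.5 retinal cells was analysed in 3 iRGC and 3 cRGC libraries. The 13 ATAC-seq samples of the series were not analysed here. The authors mapped the reads to the mouse genome (mm10) with HISAT2 2.1.0, tallied them per gene of GRCm38 with HTSeq 0.11.1 and deposited these raw counts (versions from the submitters' processing notes). A strand setting for the counting was not given in the sources used here. Tallies that name no gene, 43.1% to 47.3% of all tallies, were left out throughout. HTSeq enters a read there once for each alignment. Symbols came from GENCODE M21 for 46488 of 47069 identifiers, and positions are those of GRCm38.

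The test was that of edgeR 4.0.16 in R 4.3.3 (filterByExpr, TMM, quasi-likelihood test without a block, Benjamini-Hochberg adjustment, threshold 0.1). The study used DESeq2 with that rate. SEs are the absolute log2 fold change over the square root of F. The biological coefficient of variation was 36.3%. Replicates of a population differed by more than sampling noise (chi-square per degree of freedom 25.2 to 69.4). In data simulated from these libraries, with 200 of 15539 genes changed, the test recovered 69.8% of 4-fold and 54.6% of 2-fold changes, and 12.4% of its calls were false. For DESeq2 these values were 71.9%, 57.7% and 32.1%. They were 63.5%, 52.6% and 10.4% for limma voom, and 64.6%, 52.6% and 7.38% for edgeR with the replicate block. The simulation changed far fewer genes than the 46.4% of tested genes called in the real data, and such shares depend on how many genes change. They therefore do not carry over to the calls above, those gained with DESeq2 alone included. Ratios within libraries were compared with exact permutation tests. RefSeq promoters (GRCm38.p6) were searched for motifs on both strands.

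Members and lists were chosen with earlier results of these data known. Named are all members, the called genes of each list with the largest change (up to 3 per direction), its most abundant gene and the 2 most similar genes of each member. Other names, among them Neurod1, Neurod4, Rax, Casz1, the Onecut genes, Esrrb, Cldn5, Ttr, Dct, the cone opsins, Gnat2, Gngt2, Pde6c, Rpgrip1, Tulp1, Prom1, Impg2 and Otx1, were chosen after their values were seen. Some members of the lists are not reported here by name. The alternatives were DESeq2 size factors, upper quartile factors or library totals, DESeq2 1.42.0, limma 3.58.1 voom, no filter on low counts, a minimum of 10 counts per library, 1 library fewer, a block for the replicate number, and a threshold of 0.05.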

Additional observations from a re-analysis of the deposited data

How the results depend on the processing

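Over 15 alternatives, all 6 tested members kept their direction, and Otx2, Crx, Prdm1, Thrb and Rxrg stayed past the threshold, with highest adjusted p-values of 0.00271, 0.00202, 0.00219, 0.00509 and 0.0232. With each library left out in turn, the log2 fold changes ranged from 2.15 to 2.82 for Otx2, 1.90 to 2.34 for Crx, 2.12 to 2.61 for Prdm1, 1.59 to 2.06 for Thrb, -1.37 to -0.88 for Rxrg and 1.25 to 2.07 for Nrl. Nrl lost its call without cRGC replicate 1 or 3, and the cause was not tested. Between 5 and 6 members were called, 13 to 18 of the other regulators, 7 to 9 of the light detection genes and 7 to 11 of the structural genes. Rcvrn and Nr2e3 had no value with the filter, and their ratios to Crx and Nrl were not computed because of 0 counts.

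Same-numbered libraries did not deviate together (correlations of -0.0142, -0.0446 and -0.0669), so no pairing by number was seen. With 3 libraries per population, each taken as its deviation from the population mean, these values cannot exclude a shared litter or day. With the replicate block, 6751 genes were called in place of 7395, all 6 members were called, and the log2 fold changes of Otx2, Crx, Prdm1, Thrb, Rxrg and Nrl were 2.46, 2.13, 2.34, 1.92, -1.13 and 1.62. Of the other genes named, Mef2c (adjusted p = 0.195), Esam (0.373) and Rdh12 (0.185) lost their calls with it, and Esrrb was called lower (0.0946). No sample correlated best with its own number. Nrl rests on 32 to 210 reads per library, and Rcvrn and Nr2e3 had too few reads to pass the filter on low counts.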

Other observations

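Amacrine cells and horizontal cells are other neurons that progenitors make at this age, and their genes were present in both populations. Of 12 amacrine genes tested, 9 were higher in iRGCs, 1 lower (Barhl2, which some ganglion cells make, -1.21) and 2 not called, beside 23.3% of all tested genes called higher and 23.1% lower. Their summed level was 534, 455 and 648 CPM in iRGCs and 309, 332 and 215 CPM in cRGCs, with the most reads on Tfap2b. Tfap2c, Ptf1a and Prdm13, transcription factors of amacrine birth, had log2 fold changes of 2.47, 2.38 and 2.38. Of 11 horizontal cell genes tested, 5 were higher, 1 lower (Onecut3, -1.48) and 5 not called, so that 54.5% were called, near the 46.4% of all tested genes. Foxn4, which opens the horizontal and amacrine fates, had 263, 236 and 216 CPM in iRGCs and 22.2, 58.5 and 36.5 CPM in cRGCs, and was higher by 2.61 on the log2 scale (SE 0.30). The lists share Ptf1a and Tfap2b, and Foxn4 is made by progenitors as well.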
